A study of Rattus norvegicus with 24 samples.

Results

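Dorsal root ganglion (DRG) neurons of rats taken 3 days after sciatic nerve crush (SNC 3 d) were compared with DRG neurons of rats that had a sham operation. Every neuron that passed the limits on cell quality entered the comparison, neurons with crushed and with spared axons together, which gave 452 neurons of the 1433 that passed in the whole series. They were 237 neurons from 3 SNC 3 d samples (14, 15 and 17-3, with 95, 94 and 48 neurons) and 215 neurons from 4 labelled sham samples (Xin, 4, 10 and 18, with 24, 48, 47 and 96 neurons). The study measured messenger RNA of single, hand-picked neurons by a Smart-seq2 method with unique molecular identifiers (UMIs, tags that mark each captured RNA molecule). All animals were male Sprague-Dawley rats, all were operated on the left side, and in both groups fluorescent dyes had been injected into the nerve branches beforehand so that neurons could be picked by the branch they served. In the SNC animals the tibial and common peroneal branches were crushed and the sural branch was left intact, whereas in the sham animals the nerve was exposed without injury. No age was given, and the labels do not give the day of the labelled sham samples. The ganglia were the lumbar ganglia L4 and L5 of at least 5 rats at each time point, and nothing says which rats a sample came from, so the p-values here measure the spread between these samples.

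A DRG neuron sends a single branching axon to the periphery and to the spinal cord. When the peripheral axon is crushed, the cell body is known to switch on a regeneration program led by transcription factors such as Atf3, Jun, Sox11 and Stat3, with growth-associated proteins such as Gap43 and Sprr1a as its effectors. Injured sensory neurons are also known to make neuropeptides such as galanin, to release signals such as Csf1 to microglia, and to lower many of the ion channels that set their excitability.

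Depth overlapped between the groups. The summed UMIs per sample ran from 12852951 to 24387046 at SNC 3 d and from 4002503 to 27504367 in sham, where Xin was the shallowest. The median neuron held 216444 ± 24469 UMIs at SNC 3 d (SD, n = 3) and 214062 ± 44399 in sham (SD, n = 4, p = 0.971, exact two-sided permutation test over samples). The median number of genes per neuron was 9086 ± 186 at SNC 3 d and 8818 ± 450 in sham (p = 0.4, exact permutation test). No 2 neurons had the same profile, although the cell numbers are reused between libraries and 24 numbers occur in all 7 samples. Of the 10 pan-neuronal markers 9 could be tested, with a summed level of 9053 to 10344 CPM at SNC 3 d and 9223 to 13493 CPM in sham. CPM stands for UMIs per 1000000 UMIs of a sample, after trimmed-mean (TMM) scaling between samples. Because the neurons of a sample were summed, fewer neurons of a type and less RNA per neuron cannot be told apart. All 3 SNC 3 d samples and sham 18 were reverse-transcribed in 2020, and the other 3 sham samples in 2019, so the year and the injury are nearly confounded. By the study's sample table Xin was also sequenced in an earlier run than the other 6 samples.

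The labelled sham samples held injury genes at levels that overlapped those of the SNC 3 d samples. The series also holds 7 sham libraries that were added to it later, labelled 0, 1, 3 or 7 days, and they serve here as a second reference that was chosen after the data had been seen. On a scale shared with those libraries, Atf3, the best known injury-induced transcription factor of these neurons, was at 376 to 1100 CPM in labelled sham, at 448 to 607 CPM at SNC 3 d and at 71.5 to 176 CPM in the added sham libraries. Sprr1a, a growth-cone protein, was at 67.6 to 327 CPM in labelled sham, at 125 to 165 CPM at SNC 3 d and at 0 to 0.195 CPM in the added libraries. Gal, which encodes galanin, was at 627 to 2687 CPM in labelled sham, at 871 to 1409 CPM at SNC 3 d and at 1.49 to 20.2 CPM in the added libraries. For each of these genes the labelled groups overlapped each other and neither overlapped the added libraries. Against the added sham libraries, edgeR with a Benjamini-Hochberg adjusted p under 0.05 called 20.4% of 15954 genes higher and 19.7% lower at SNC 3 d, and 23.9% higher and 23.7% lower in labelled sham.

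Set against those shares, the injury lists stood as follows. Of 12 regeneration transcription factors 7 were called higher and 0 lower at SNC 3 d, and 7 and 0 in labelled sham. Of 22 axon growth effectors 15 were called higher and 1 lower at SNC 3 d, and 18 and 2 in labelled sham. Of 8 tested injury neuropeptides 5 were called higher at SNC 3 d and 4 in labelled sham, with 0 lower in either. Of 22 tested potassium channel genes, by contrast, 12 were called lower at SNC 3 d and 13 in labelled sham, and 0 higher in either. Lists outside injury also shifted. Of 68 cytoplasmic ribosomal protein genes 59 were called higher at SNC 3 d and 62 in labelled sham, with 0 lower. Of 85 nuclear respiratory chain genes these were 67 and 73, with 0 lower. Of 47 proteasome genes 38 were called higher in each, with 1 and 2 lower. A high share of calls was thus not particular to the injury lists. The labels count crushed and spared neurons only for the labelled samples, and the added libraries form a set of their own. By the paper's methods, the sciatic nerve was also exposed and dye injected into its branches before the operation. The paper counts its fluorescently labelled neurons apart from the others. Injury, the earlier exposure and dye injection, choice of neurons and library set therefore cannot be told apart in this comparison. Whether the surgery of the labelled sham samples was as labelled was not tested, and every value against sham given here, the 0 calls included, is a difference from samples with these injury gene levels.

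Between SNC 3 d and labelled sham, edgeR's quasi-likelihood test called 0% of 14239 genes at an adjusted p under 0.05. The lowest adjusted p of edgeR was 0.183, for RGD1562420. At an unadjusted p under 0.05 there were 594 genes, 4.17% of those tested, of which 268 (1.88% of all tested) were higher and 326 (2.29%) lower at SNC 3 d. DESeq2 called 1 gene, RGD1562420, and had 862 genes at an unadjusted p under 0.05. The 3 SNC 3 d samples lay entirely above the 4 sham samples for 446 genes (3.13%) and entirely below them for 424 genes (2.98%). The median log2 fold change over all genes was -0.00, with 7030 genes above 0 and 7209 below.

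None of the regeneration transcription factors passed the test. All 12 were tested, 3 lay above 0 and 9 below, with a median log2 fold change of -0.15, 0 at an unadjusted p under 0.05, and 0 without overlap between the groups. Atf3 was at 430, 539 and 582 CPM in samples 14, 15 and 17-3 and at 1070, 363, 540 and 466 CPM in sham Xin, 4, 10 and 18. Xin was the highest of all 7, and the other sham samples spanned the SNC 3 d samples, which gave a log2 fold change of -0.23 (SE 0.28, edgeR adjusted p = 0.979). Jun, the partner of Atf3 in the AP-1 complex, was at 330, 331 and 419 CPM at SNC 3 d and at 840, 302, 439 and 295 CPM in sham, again with Xin on top. Sox11, a factor that drives growth genes, was at 19.5, 13.8 and 14.3 CPM at SNC 3 d and at 20.8, 6.52, 14.8 and 7.12 CPM in sham (log2 fold change 0.40, SE 0.41). Smad1, Klf6 and Stat3, all needed for full axon regrowth, had log2 fold changes of -0.14, -0.12 and -0.02. Without Xin the list's median was 0.13, and Atf3, Jun, Smad1, Klf6 and Stat3 stood at 0.18, 0.06, 0.08, 0.20 and 0.10, so each of these values changed sign. With Xin kept and the year in the fit, the list's median was 0.10.

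The axon growth effectors read alike. All 22 were tested, 5 above and 17 below 0, with a median log2 fold change of -0.20, which was 0.08 without Xin. Gap43, the growth-associated protein of the growth cone, was at 1424, 1789 and 1627 CPM at SNC 3 d and at 2302, 1370, 1546 and 1375 CPM in sham. Sprr1a was at 120, 160 and 158 CPM at SNC 3 d and at 318, 65.2, 167 and 94.2 CPM in sham, so that sham spanned the SNC 3 d samples on both sides. Arg1, the arginase that feeds polyamine synthesis, was at 85.2, 117 and 155 CPM at SNC 3 d and at 201, 25.1, 91.2 and 44.4 CPM in sham (log2 fold change 0.42, SE 0.51). Csrp3, a muscle LIM protein that injured sensory neurons also make, was at 127, 201 and 157 CPM at SNC 3 d and at 448, 157, 224 and 187 CPM in sham, with Xin far above the rest. The microtubule genes Stmn2 and Tubb2b, which serve the growing axon, had log2 fold changes of -0.07 and -0.21, and of 0.04 and 0.11 without Xin. Plaur, the urokinase receptor, was the list's member at an unadjusted p under 0.05, with 38.9, 49.9 and 36.9 CPM at SNC 3 d and 187, 51.1, 54.0 and 42.2 CPM in sham. Its log2 fold change of -0.98 (SE 0.46, edgeR adjusted p = 0.966) was -0.23 without Xin.

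Among the injury neuropeptides, Nts and Vgf leaned upward. Of 9 listed, 8 were tested, 6 above and 2 below 0, with a median log2 fold change of 0.50 (0.45 without Xin), and 2 were higher at an unadjusted p under 0.05, beside 1.88% of all genes. Nts, which encodes neurotensin, was at 56.7, 23.7 and 14.9 CPM at SNC 3 d and at 18.9, 7.61, 10.4 and 3.32 CPM in sham, where Xin exceeded the lowest SNC 3 d sample. Its log2 fold change was 1.72 (SE 0.57, edgeR adjusted p = 0.966), a 3.29-fold higher fitted level. Vgf, a precursor of secreted peptides, was at 283, 247 and 276 CPM at SNC 3 d and at 261, 131, 148 and 185 CPM in sham (log2 fold change 0.57, SE 0.18, edgeR adjusted p = 0.966). Here only Xin came up to the SNC 3 d level, and without it the log2 fold change was 0.79. Gal was at 836, 1372 and 970 CPM at SNC 3 d and at 2616, 605, 1141 and 722 CPM in sham, and Vip, the vasoactive intestinal peptide, at 221, 441 and 398 against 718, 481, 339 and 270 CPM. Adcyap1, the precursor of PACAP, was at 552, 445 and 338 CPM at SNC 3 d and at 400, 156, 375 and 393 CPM in sham. Cck, cholecystokinin, ranged from 16.3 to 36.9 CPM at SNC 3 d and from 0.621 to 34.3 CPM in sham, with sham 4 and sham 18 under 1 CPM. Npy was not tested, with 1 UMI in all SNC 3 d neurons together and 0 in sham.

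**Figure D1:**
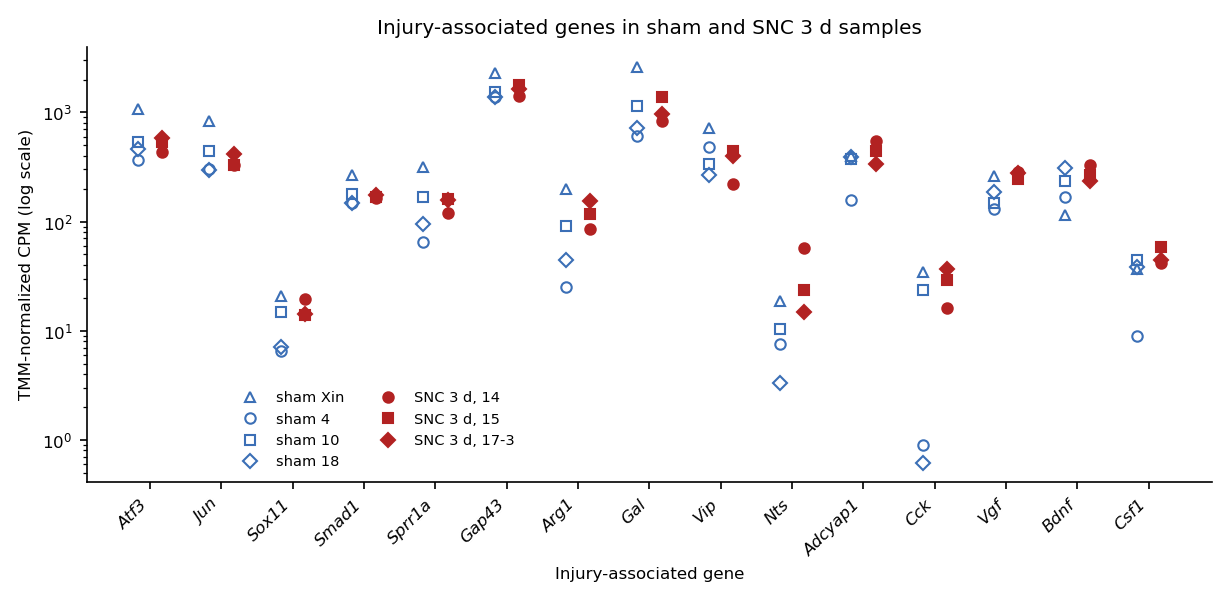
Level of 15 injury-associated genes in each sample, on a log axis of TMM-normalized CPM, with open blue symbols for the 4 sham samples and filled red symbols for the 3 SNC 3 d samples. For Atf3, Jun, Sprr1a and Gal the SNC 3 d samples sit inside the range of sham, whose highest point is Xin, while for Nts and Vgf they sit near or above the top of it.

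The injury signals and their receptors had 12 of 14 members tested, 5 above and 7 below 0, and a median log2 fold change of -0.05, with 0 at an unadjusted p under 0.05. Csf1, the cytokine that injured neurons send to microglia, was at 41.5, 58.1 and 44.2 CPM at SNC 3 d and at 36.6, 8.97, 44.3 and 38.4 CPM in sham. Bdnf, a neurotrophin released by sensory neurons, was at 327, 266 and 236 CPM at SNC 3 d and at 116, 169, 237 and 310 CPM in sham (log2 fold change 0.40, and -0.18 against sham 18 alone). Reg3b, a secreted lectin, was at 311, 261 and 97.8 CPM at SNC 3 d and at 161, 106, 87.3 and 130 CPM in sham, so sample 17-3 lay inside the sham range (log2 fold change 0.89, SE 0.46).

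Neurons were also counted instead of summed. This share has a ceiling, which Stat3, Stmn2 and Tubb2b reached at 100% in every sample. For such genes, and for Atf3 near the ceiling, it could hardly show a rise, so overlap there says little. Each neuron was thinned to 20000 UMIs, which left out 14 SNC 3 d and 11 sham neurons that were shallower, and the share with at least 1 UMI was compared for 43 genes of the factor, effector and peptide lists. Atf3 was found in 96.6%, 96.6% and 95.7% of the neurons of samples 14, 15 and 17-3, and in 100%, 93.3%, 95.3% and 94.7% of those of sham Xin, 4, 10 and 18. Sprr1a was found in 55.3% to 62.5% of SNC 3 d neurons and in 35.1% to 81.8% of sham neurons. Nts was found in 26.1%, 23.9% and 14.9% of SNC 3 d neurons and in 13.6%, 6.67%, 6.98% and 5.32% of sham neurons. It was the 1 gene of the 43 whose groups did not overlap (exact two-sided permutation p = 0.0571, the smallest that 3 against 4 samples can give, adjusted p = 1). In the sums, 3.13% of all genes lay entirely above sham and 2.98% entirely below. The like share of neurons over all genes was not computed, so 1 of 43 is no measured excess. Without thinning Nts overlapped, at 60%, 40.4% and 37.5% of SNC 3 d neurons and 45.8%, 20.8%, 21.3% and 14.6% of sham neurons, and the 1 gene without overlap was Sox11, at 66.3% to 75.0% against 39.6% to 62.5%. With at least 2 UMIs there were 0 such genes. The top neuron held 16.7% to 28.8% of the Nts UMIs of an SNC 3 d sample and 28.6% to 59.5% of those of a sham sample.

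RGD1562420, an uncharacterised gene named by its rat database identifier, had the lowest p of all genes. It was at 84.0, 61.3 and 15.2 CPM in samples 14, 15 and 17-3 and at 407, 212, 348 and 245 CPM in sham Xin, 4, 10 and 18. The groups did not overlap, and the log2 fold change was -2.49 (SE 0.41, edgeR adjusted p = 0.183), a 5.61-fold lower fitted level. With the year of reverse transcription in the fit it was -2.51, against sham 18 alone -2.20, and without Xin -2.31. The gene passed an adjusted p of 0.05 with DESeq2 (2.09e-06), in edgeR without the filter on low counts (0.0121) and in edgeR without sample 17-3 (0.0390). It was at 177 to 270 CPM in the 4 SNC 1 d samples and at 215 to 363 CPM in the 5 SNC 7 d samples, with log2 fold changes against the same sham samples of -0.40 and -0.00. SNC 3 d differed from SNC 7 d by -2.49 on the log2 scale (edgeR adjusted p = 0.143). In the added sham libraries the gene spanned 3.90 to 175 CPM, so libraries without a crush also reached the low level of SNC 3 d. That range is on the scale shared with those libraries, which is not the scale of the other values here.

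Within the SNC 3 d samples RGD1562420 was either high or low in a neuron, and most high neurons stood together in the order of the cell numbers. At a limit of 50 CPM, which was set after the values were seen, 213 of 215 sham neurons and 71 of 237 SNC 3 d neurons were above it. In sample 14 the neurons numbered 1 to 55 held 53 of 55 above the limit with a median of 198 CPM, and those numbered 56 to 96 held 2 of 40 with a median of 9.70 CPM. In sample 15 all 12 neurons numbered 59 to 70 were above it with a median of 316 CPM, and 0 of 56 before them and 0 of 26 after them were. In sample 17-3 all 4 neurons numbered 7 to 10 were above it with a median of 138 CPM, against 0 of 6 before and 0 of 38 after. The medians of the sham samples lay between 212 and 349 CPM, near those of the high runs, and the medians of the other stretches lay between 3.07 and 9.70 CPM. Levels within sham 18 also differed by cell number, with overlap. Its neurons numbered 1 to 48 reached 571 CPM, and those numbered 49 to 96 reached 274 CPM. The runs were also read off after the values were seen. What the numbers stand for, such as a rat or a picking session, is not given in the sources used here, and their part in the difference was not tested.

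**Figure D2:**
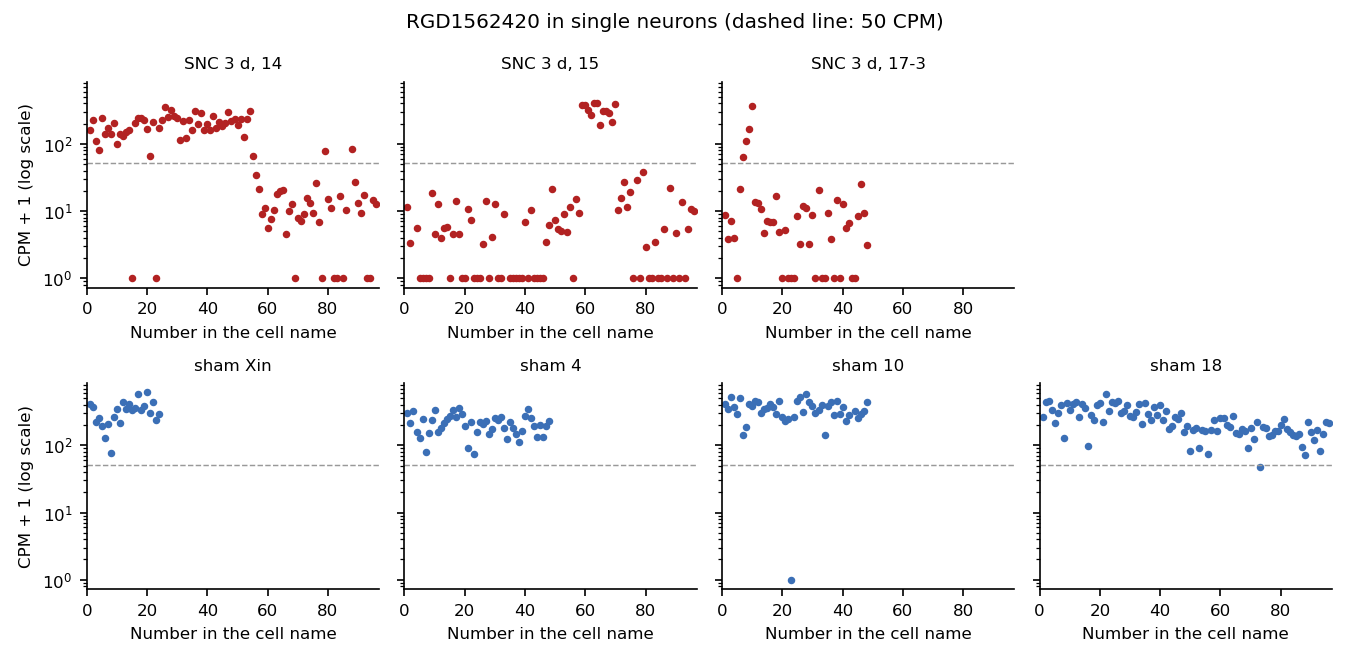
RGD1562420 in every neuron of the 7 samples, as CPM + 1 on a log axis against the number in the cell name, with the dashed line at 50 CPM. Nearly all sham neurons (213 of 215) lie above the line, while in the SNC 3 d samples most neurons above it stand together (53 of 55 in the first part of sample 14, with 2 more above it among the later 40, 12 of 12 in a stretch of sample 15 and 4 of 4 in a stretch of sample 17-3).

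Ion channels and pain peptides were spread around 0. Of 15 nociceptor peptides and channels 14 were tested, 9 above and 5 below 0, with a median log2 fold change of 0.07 that was -0.10 without Xin. Calca, the gene of calcitonin gene-related peptide, was at 1738, 1480 and 910 CPM at SNC 3 d and at 328, 1103, 1165 and 2079 CPM in sham. Trpv1, the capsaicin receptor, was at 83.4, 59.5 and 59.3 CPM at SNC 3 d and at 21.7, 38.4, 85.8 and 96.3 CPM in sham. Tac1, the precursor of substance P, was at 1011, 949 and 571 CPM at SNC 3 d and at 367, 481, 815 and 1117 CPM in sham. In all 3 genes, Xin was lowest and sham 18 highest, and the SNC 3 d samples fell between them. All 11 voltage-gated sodium channel genes were tested, 9 above and 2 below 0, with a median of 0.21 and of 0.01 without Xin. The 2 members without overlap, beside 3.13% of all genes, were Scn2a, a sodium channel pore gene, at 25.7, 33.3 and 26.2 against 23.9, 21.7, 20.4 and 25.1 CPM, and the subunit gene Scn2b at 9.19 to 10.8 against 5.99 to 9.15 CPM. Scn10a, the nociceptor channel Nav1.8, was at 161, 149 and 131 CPM at SNC 3 d and at 64.7, 98.9, 120 and 188 CPM in sham, in the order of Calca and Trpv1. Scn9a, the channel Nav1.7 whose loss abolishes pain, was at 436, 458 and 483 CPM at SNC 3 d and at 330, 462, 446 and 491 CPM in sham.

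Of 25 potassium channel genes 22 were tested, 12 above and 10 below 0, with a median log2 fold change of 0.09 and 0 at an unadjusted p under 0.05. Of 13 calcium channel genes 12 were tested, 7 above and 5 below 0. Of them 1 was higher at an unadjusted p under 0.05 and 1 had no overlap, beside 1.88% and 3.13% of all genes. Cacna1a, the pore of the P/Q-type channel that triggers transmitter release, was at 55, 62.5 and 44.2 CPM at SNC 3 d and at 29.3, 39.9, 32.4 and 42.6 CPM in sham, without overlap (log2 fold change 0.57, SE 0.19, edgeR adjusted p = 0.966). Cacna2d1, the gabapentin-binding subunit and a gene known to rise after nerve injury, was at 610 to 673 CPM at SNC 3 d and at 519 to 960 CPM in sham. The 5 neurofilament and peripherin genes had a median of -0.03, with Nefl, the light subunit, at 1026 to 1398 CPM at SNC 3 d and at 589 to 1474 CPM in sham, and Nefh, the heavy subunit of large axons, at 722 to 857 CPM at SNC 3 d and at 505 to 976 CPM in sham.

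Among genes of transmitter release, all 21 were tested, 15 above and 6 below 0, with a median log2 fold change of 0.10. Sv2a, a synaptic vesicle protein, was at 114, 123 and 96.5 CPM at SNC 3 d and at 92.6, 47.6, 71.7 and 88.5 CPM in sham, without overlap (log2 fold change 0.57, SE 0.19, edgeR adjusted p = 0.966). Syn2, a synapsin that tethers vesicles, was at 126, 107 and 128 CPM at SNC 3 d and at 144, 176, 131 and 131 CPM in sham, without overlap in the other direction. Of 19 inhibitory and opioid receptor genes 18 were tested, 8 above and 10 below 0. Adra2a, the adrenergic receptor bound by clonidine, was without overlap at 4.50 to 5.08 against 0.844 to 4.24 CPM.

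Genes of lipid synthesis and of stress had medians between -0.32 and 0.02. All 20 cholesterol synthesis genes were tested, 7 above and 13 below 0, with a median log2 fold change of -0.11 that was 0.06 without Xin. Srebf2, the master regulator of the pathway, was at 100, 109 and 112 CPM at SNC 3 d and at 77.9, 78.0, 69.5 and 95.4 CPM in sham, without overlap (log2 fold change 0.41, SE 0.15, edgeR adjusted p = 0.966). Its target Hsd17b7 leaned the same way (0.53), and Hmgcs1, the synthase at the head of the pathway, stood at -0.09. Mvk, mevalonate kinase, leaned the other way, with 6.31 to 9.30 CPM at SNC 3 d and 7.30 to 45.3 CPM in sham. All 12 genes of the integrated stress response were tested, 1 above and 11 below 0, with a median of -0.32 that was -0.02 without Xin. Atf4, the transcription factor of this response, was at 346, 332 and 408 CPM at SNC 3 d and at 718, 383, 383 and 323 CPM in sham. Phgdh, the first enzyme of serine synthesis, was at 5.84, 3.64 and 7.95 CPM at SNC 3 d and at 47.3, 18.7, 8.04 and 11 CPM in sham, without overlap (log2 fold change -1.84, SE 0.60, edgeR adjusted p = 0.966). Of 12 endoplasmic reticulum chaperones 6 lay above and 6 below 0, and 3 had no overlap, all higher, beside 3.13% of all genes. These were Hspa5 at 371 to 382 against 327 to 365 CPM, Hsp90b1 at 288 to 310 against 233 to 283 CPM, and Canx at 409 to 434 against 375 to 397 CPM, with log2 fold changes of 0.12, 0.18 and 0.12.

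Immediate early and heat shock genes had 14 of 15 members tested, 4 above and 10 below 0, and a median of -0.28. Fos, which reports recent activity or handling, was at 215, 109 and 203 CPM at SNC 3 d and at 328, 92.5, 127 and 220 CPM in sham. Hsp90aa1, an inducible chaperone, was the member at an unadjusted p under 0.05, with 8.93 to 12.6 against 10.4 to 34.3 CPM (log2 fold change -1.02, SE 0.39, edgeR adjusted p = 0.966). Of 12 p53 targets 10 were tested, 5 on each side of 0, with Phlda3, an inhibitor of Akt signalling, at 49.7 to 57.0 against 54.9 to 118 CPM. Of 16 antioxidant genes 14 were tested, 7 on each side, with Hmox1, heme oxygenase, at 28.7 to 43.8 against 42.2 to 56.9 CPM. Gstp1, a glutathione transferase, was without overlap at 348 to 361 against 363 to 407 CPM. All 16 lysosome genes were tested, 4 above and 12 below 0, with a median of -0.13 and -0.01 without Xin. Of 50 proteasome genes 47 were tested, 18 above and 29 below 0, with a median of -0.05.

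**Figure D3:**
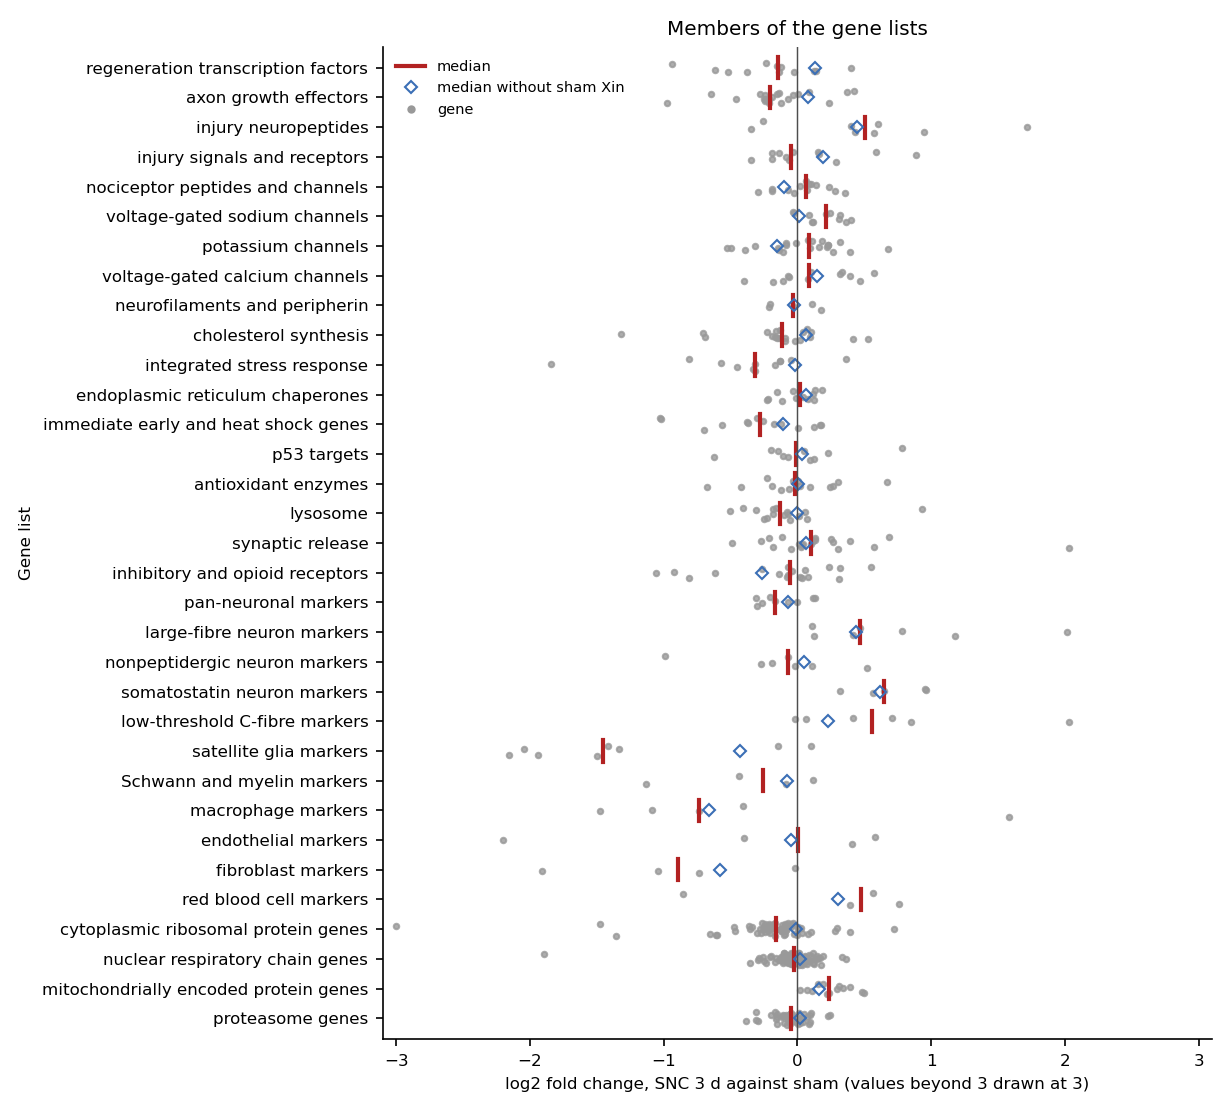
Log2 fold change of SNC 3 d against sham for each tested gene of the lists, with a red bar at the median of each list and an open diamond at the median without sham Xin. Most medians lie near 0, and those of the transcription factors (-0.15 and 0.13), effectors (-0.20 and 0.08) and satellite glia markers (-1.46 and -0.43) shift when Xin is left out. The 1 gene beyond 3 log2 units, a cytoplasmic ribosomal protein gene at -5.43, is drawn at the edge.

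The genes the study assigned to co-expression modules were chosen by it on these samples, so their counts are no independent evidence of a direction. Of 22 Cyan genes 8 lay above and 14 below 0 (median -0.06, and 0.41 with the year in the fit), and of 37 Salmon genes 23 above and 14 below (median 0.10). Of 3 Greenyellow genes 2 lay above 0, led by Rbms3, an RNA-binding protein, at 251, 397 and 319 against 157, 168, 209 and 302 CPM. Of 10 Tan genes 5 lay on each side, and Peg3, an imprinted zinc finger gene, was without overlap at 247, 235 and 261 against 128, 203, 205 and 184 CPM (log2 fold change 0.45, SE 0.16, edgeR adjusted p = 0.966).

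The mitochondrially encoded genes leaned upward as a group. The 13 protein genes of the mitochondrial genome encode subunits of the respiratory chain, and all 13 were tested and lay above 0, with a median log2 fold change of 0.23. Of them 4 were higher at an unadjusted p under 0.05 and 5 had no overlap between the groups, beside 1.88% and 3.13% of all genes. Their summed level was 13672, 16383 and 14205 CPM in samples 14, 15 and 17-3 and 11508, 12787, 12099 and 14040 CPM in sham Xin, 4, 10 and 18. The SNC 3 d samples thus overlapped sham, through sham 18 alone, the sham sample of the same year. Mt-nd5, a subunit of complex I, was at 619, 724 and 656 CPM at SNC 3 d and at 472, 504, 468 and 581 CPM in sham, without overlap (log2 fold change 0.40, SE 0.11, edgeR adjusted p = 0.966). Mt-nd6, another complex I subunit, was at 582, 692 and 595 CPM at SNC 3 d and at 354, 451, 384 and 574 CPM in sham (log2 fold change 0.50, SE 0.16, edgeR adjusted p = 0.966). Mt-nd5 and Mt-nd6 lie next to each other on opposite strands, and the strand setting of the counting is not given in the sources used here. Mt-co3, a core subunit of complex IV, was at 1304, 1391 and 1280 CPM at SNC 3 d and at 1111, 1162, 1115 and 1117 CPM in sham (log2 fold change 0.23, SE 0.10). The other 2 without overlap were Mt-nd3, at 519 to 550 against 250 to 459 CPM, and Mt-nd1, at 1247 to 1345 against 1163 to 1242 CPM.

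The lean was smaller within a year. Against sham 18 alone the median of the 13 genes was 0.07, a fit with the year in it gave 0.12, and without Xin 0.16. The log2 fold changes of Mt-nd5 and Mt-nd6 against sham 18 alone were 0.18 and 0.10, and that of Mt-co3 was 0.23. The median share of mitochondrial UMIs per neuron was 1.64%, 1.70% and 1.52% in the SNC 3 d samples and 1.03%, 1.46%, 1.32% and 1.45% in sham, without overlap (p = 0.0571 by an exact two-sided permutation test, the smallest possible, adjusted p = 0.171). Genes of the respiratory chain that lie in the nucleus were spread on both sides of 0. Of 93 listed 85 were tested, 36 above and 49 below 0, with a median of -0.03 and 4 without overlap, all lower, beside 2.98% of all genes. Among these 4 was Ndufv1, a complex I subunit, at 310, 311 and 333 CPM at SNC 3 d and at 471, 371, 369 and 340 CPM in sham. The mitochondrial share is the sum of the 13 mitochondrially encoded protein genes over all UMIs of a neuron. It therefore repeats their values per neuron and is no separate evidence beside them. This share is also read as a sign of cell quality, and the part of cell quality in the gene values was not tested.

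**Figure D4:**
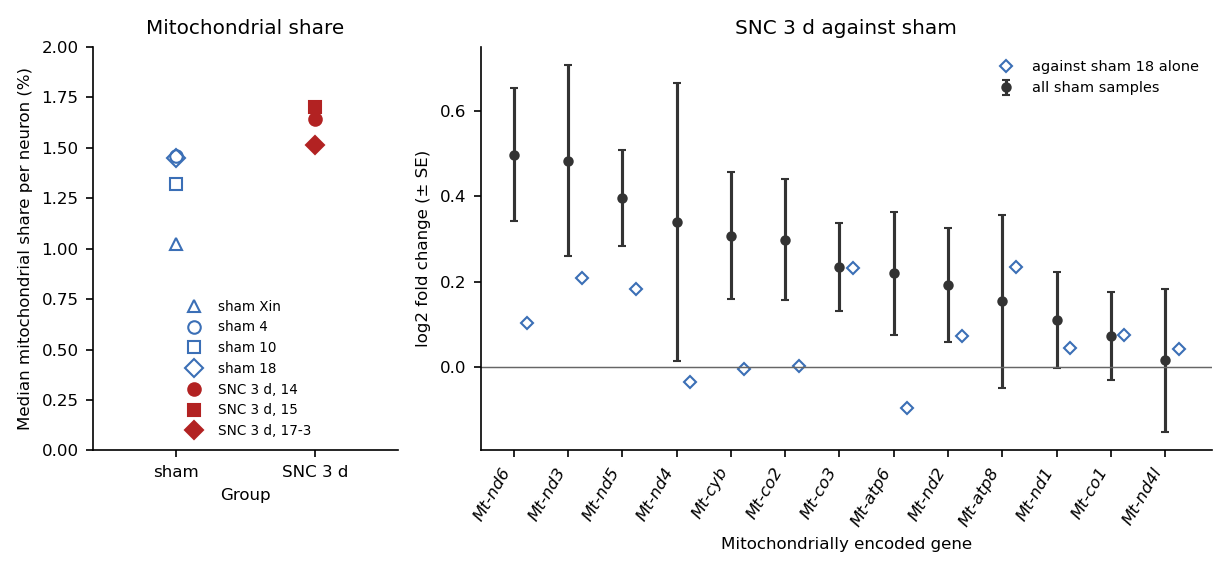
Left, the median share of mitochondrial UMIs per neuron in each sample, which runs from 1.52% to 1.70% at SNC 3 d and from 1.03% to 1.46% in sham. Right, the log2 fold change of each of the 13 mitochondrially encoded protein genes against all sham samples (dots, bars ± 1 SE) and against sham 18 alone (open diamonds), most of which lie lower.

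Cytoplasmic ribosomal protein genes lay mostly below 0 when all sham samples were used. Of 73 listed 68 were tested, 10 above and 58 below 0, with a median log2 fold change of -0.16. The median was -0.01 without Xin and 0.005 with the year in the fit. Their summed level was 26215 to 29994 CPM at SNC 3 d, 40608 CPM in Xin and 26157 to 28981 CPM in the other sham samples. Lower at an unadjusted p under 0.05 were 4 of them, beside 2.29% of all genes, and Rps9 was among these at 11.5, 6.43 and 7.63 against 45.9, 12.8, 30.9 and 7.05 CPM. The lowest log2 fold change of the list, -5.43, was also the lowest of all genes tested. No gene of the list passed an adjusted p of 0.05.

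Glial RNA was uneven between the samples. Satellite glia wrap each DRG cell body and can be picked up with it. Of 9 satellite glia markers 8 were tested, 1 above and 7 below 0, with a median log2 fold change of -1.46 that was -0.43 without Xin. Apoe, a lipid carrier made by satellite glia, was at 115, 23.2 and 97.6 CPM at SNC 3 d and at 823, 96.8, 111 and 187 CPM in sham (log2 fold change -1.94, SE 0.75, edgeR adjusted p = 0.966). Sparc, a matrix protein, was at 31.3, 12.3 and 26.7 CPM at SNC 3 d and at 286, 23.0, 31.4 and 51.7 CPM in sham. Fxyd1, a regulator of the sodium pump that is no member of the list and was chosen by its low p at the lower end of all genes, was also highest in Xin, at 10.4, 6.18 and 11.1 against 79.4, 14.9, 13.3 and 23.6 CPM, without overlap. The summed level of the satellite glia list was 465 to 792 CPM at SNC 3 d and 663 to 1477 CPM in sham, with Xin at the top and 862 CPM the highest of the others. Kcnj10, a defining channel of satellite glia, had 3 UMIs in all SNC 3 d neurons and 0 in sham. S100b, which is also made by large neurons, was the member above 0, at 362, 319 and 561 against 144, 510, 400 and 487 CPM. It made up most of the list's summed level in every sample but Xin.

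Markers of other cell types were at unequal levels, with the myelin list the highest. Of 6 Schwann cell and myelin markers 4 were tested, 1 above and 3 below 0, with a median of -0.26 and a summed level of 843 to 967 CPM at SNC 3 d and 858 to 1426 CPM in sham. Mbp, myelin basic protein, was at 37.5, 49.0 and 50.7 CPM at SNC 3 d and at 234, 45.2, 49.2 and 77.1 CPM in sham. Most of the summed level thus came from the other tested members in every sample, and the cells that made that RNA were not tested. Of 10 macrophage markers 5 were tested, with a summed level of 9.61 to 16.4 CPM at SNC 3 d and 12.1 to 36.5 CPM in sham. The defining macrophage genes C1qa, C1qb, C1qc, Ptprc and Tyrobp did not pass the filter and were each at most 0.617 CPM. The 4 tested of 6 endothelial, 4 of 6 fibroblast and 4 of 5 red blood cell markers summed to at most 14.4, 14.8 and 3.21 CPM in any of the 7 samples. Glial RNA was highest in Xin together with the injury genes, and its part in the values of Xin was not tested.

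Markers of neuron types differed in sign and none passed the test. Of 8 large-fibre neuron markers 7 were tested, all 7 above 0, with a median log2 fold change of 0.47 and a summed level of 1036 to 1309 CPM at SNC 3 d and 636 to 1284 CPM in sham. Pvalb, the calcium-binding protein of proprioceptors, was at 124, 75.0 and 21.1 CPM at SNC 3 d and at 0, 95.9, 29.6 and 2.30 CPM in sham. All 5 somatostatin neuron markers lay above 0, with a median of 0.64 and a summed level of 134 to 543 CPM against 121 to 379 CPM. Sst, the peptide that names these itch neurons, was at 35.3, 198 and 278 CPM at SNC 3 d and at 40.8, 49.0, 105 and 260 CPM in sham, and Nppb, their natriuretic peptide, at 41.4, 103 and 141 against 47.3, 19.2, 55.2 and 73.5 CPM. Osmr, the oncostatin M receptor of the same neurons, was at 38.0, 51.4 and 90.9 CPM at SNC 3 d and at 21.1, 42.6, 33.5 and 26.4 CPM in sham. All 3 genes were lowest in sample 14 and highest in sample 17-3 among the SNC 3 d samples, so the samples of a group held them unequally. Of 6 low-threshold C-fibre markers 5 lay above and 1 below 0, with a median of 0.56, and of 8 nonpeptidergic markers 7 were tested, 2 above and 5 below 0, with a median of -0.07. Rbfox3, the neuronal nuclear protein NeuN, was at 197, 207 and 229 CPM at SNC 3 d and at 257, 272, 253 and 258 CPM in sham, without overlap (log2 fold change -0.30, SE 0.15, edgeR adjusted p = 0.966).

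The genes at either end were taken by rule, as the 12 with the lowest p on each side among genes of at least 10 mean CPM without overlap between the groups, of which there were 277 higher and 314 lower. These values chose the genes, so they are given as a description. Htr2b, a serotonin receptor, was at 30.4, 22.5 and 12.8 CPM at SNC 3 d and at 12.4, 0.724, 7.04 and 4.78 CPM in sham (log2 fold change 1.89, SE 0.56). It was found in 14.9% to 28.4% of SNC 3 d neurons and 2.22% to 13.8% of sham neurons after thinning to 20000 UMIs. It was at 12.3 to 33.6 CPM at SNC 1 d and at 4.17 to 10.2 CPM at SNC 7 d. Hs2st1 and Hs6st1, both enzymes that add sulfate to heparan sulfate chains, were at 162, 156 and 134 against 122, 79.5, 79.1 and 112 CPM, and at 111, 94.9 and 82.4 against 52.1, 65.7, 56.5 and 77.2 CPM. Cblc, a ubiquitin ligase, was at 19.0, 15.9 and 12.0 against 3.66, 7.88, 8.87 and 6.35 CPM (log2 fold change 1.20, SE 0.32). LOC691311 had the largest fitted value of this end (2.77, SE 0.76), from 9.57 to 19.8 CPM at SNC 3 d and 0 to 4.72 CPM in sham. The other genes of this end beside Mt-nd5 and Mt-nd6 were Tsen34l1, Tmtc3, Sos2, Ceacam9 and Zmiz1, with log2 fold changes of 0.63, 0.74, 0.58, 2.04 and 0.60.

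At the lower end, beside RGD1562420 and Fxyd1, Timm8b, a chaperone of mitochondrial import, was at 14.7, 9.78 and 13.9 CPM at SNC 3 d and at 41.6, 26.2, 27.1 and 17.9 CPM in sham (log2 fold change -1.13, SE 0.33). Irf7, an interferon regulatory factor, was at 8.03, 7.11 and 8.91 against 20.8, 13.6, 11.6 and 15.4 CPM (log2 fold change -0.93, SE 0.29). Il11ra1, the receptor of interleukin 11, was at 24.6, 21.5 and 24.6 against 33.5, 43.7, 31.2 and 33.3 CPM. Tmem35a, a chaperone of nicotinic receptors, was at 92.7, 89.4 and 92.5 against 109, 147, 125 and 114 CPM, and had a narrow spread at SNC 3 d (SD 1.83 CPM, n = 3). Dipk1b, Plbd2, Gps1, Mlycd, Itm2c and Bag1 completed this end, with log2 fold changes of -0.40, -0.56, -0.39, -0.56, -0.50 and -0.31. The edgeR adjusted p was 0.966 for each of these genes at both ends other than RGD1562420. Mrpl43, a gene outside this rule that was chosen after its values were seen, showed how far 1 sample can go, with 119, 96.8 and 113 CPM at SNC 3 d, 133, 168 and 84.8 CPM in sham Xin, 4 and 10, and 4.20 CPM in sham 18.

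**Figure D5:**
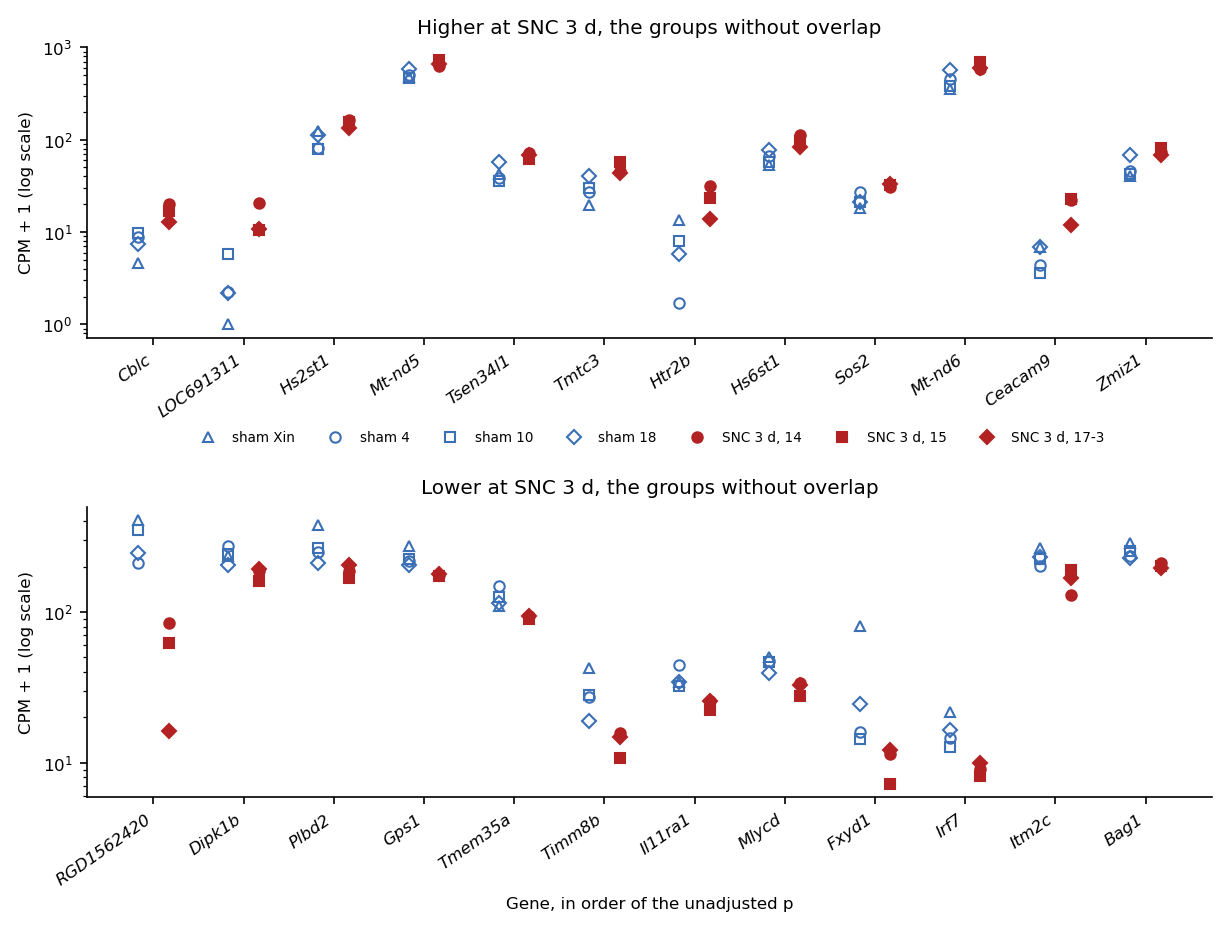
Level of the 12 genes at the higher end (top) and the 12 at the lower end (bottom) in each sample, as CPM + 1 on log axes, in order of the unadjusted p. Open blue symbols are sham and filled red symbols SNC 3 d, and RGD1562420 (15.2 to 84.0 against 212 to 407 CPM) has the widest gap at the lower end.

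The other times after crush share the sham samples, so their values are given side by side only. At SNC 1 d and SNC 7 d edgeR called 0 genes against the same sham samples, with 1243 and 476 genes at an unadjusted p under 0.05, and between SNC 3 d and either time it called 0, with 439 and 767 at an unadjusted p under 0.05. Atf3 was at 447 to 661 CPM at SNC 1 d and at 365 to 647 CPM at SNC 7 d, against 430 to 582 CPM at SNC 3 d, so the ranges of the 3 times overlapped. Nts was at 3.43 to 6.97 CPM at SNC 1 d, at 14.9 to 56.7 CPM at SNC 3 d and at 8.07 to 30.9 CPM at SNC 7 d. Vgf was at 194 to 261 CPM at SNC 1 d and at 199 to 269 CPM at SNC 7 d, both overlapping SNC 3 d at 247 to 283 CPM. Mt-nd5 was at 481 to 619 CPM at SNC 1 d and at 420 to 529 CPM at SNC 7 d, so that SNC 3 d, at 619 to 724 CPM, lay above SNC 7 d. Apoe was at 105 to 558 CPM at SNC 1 d and at 51.8 to 118 CPM at SNC 7 d.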

How the data were processed

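Counts were deposited by the authors as UMIs per gene and cell, 1 file per library (24 files, 32883 genes each, 32881 shared). According to the study, reads were aligned to Rnor_6.0 with STAR, assigned with featureCounts and collapsed by UMI with UMI_tools. No genome of this build was used here, so genes are given by symbol without positions. From the 1464 deposited cells, those with at least 500 genes, 1000 UMIs and a share of Mt- protein genes under 5% were kept, and their UMIs were summed per DRG sample. The summed counts of the 16 labelled samples were filtered with filterByExpr, scaled by TMM and fitted with edgeR 4.0.16 (quasi-likelihood test, R 4.3.3), SNC 3 d against sham, with Benjamini-Hochberg adjustment over 14239 genes. DESeq2 1.42.0, other scalings and filters, the year of reverse transcription (from the study's sample table), thinned cells and leaving out each sample were alternatives. CPM values beside the added sham libraries came from a TMM scaling of all 23 samples, and the calls against those libraries from an edgeR fit of the same 23. SciPy 1.17.1 gave the exact permutation tests, and figures were drawn with matplotlib 3.10.9. Between any 2 samples of the same group the chi-square per degree of freedom was 16.8 to 41.8, so none was a duplicate. The edgeR fit was tested on simulated data. The members, gene lists and named genes (list members, calls, and the 12 genes of lowest p at either end) were chosen with earlier results of these data known. Genes with an identifier in place of a symbol were counted and mostly not named, and 1 result is not reported here. No test of doublets was made, since cells were picked singly by hand. Counts cover counting error only within a library, and PCR duplicates were removed by UMI.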

Additional observations from a re-analysis of the deposited data

Results flagged for a closer look

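In 11 of 94 groups of 4 sham samples or readings, a single sample stood farther from the others than Dixon's 95% critical value allows. Of these 11, 7 were in sham Xin. Chance gives about 1 in 20 groups only where groups are independent and unselected. These groups read the same samples over many genes, some chosen by their values, so the count is no measured excess. Xin stood highest for Plaur at 187 CPM, Atf4, a stress response factor, at 718 CPM, Apoe at 823 CPM, Sparc at 286 CPM, Mbp at 234 CPM and Fxyd1 at 79.4 CPM, and lowest for Adra2a at 0.844 CPM. Xin was also the shallowest sample, with 24 neurons and 4002503 UMIs. Sham 4 stood lowest for Adcyap1 at 156 CPM and for Canx at 375 CPM, and highest for Mt-co3 at 1162 CPM. Sham 18 stood highest for Hsd17b7 at 19.2 CPM. The 3 SNC 3 d samples are too few for this test.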

How the results depend on the processing

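Each result was recomputed under up to 15 alternatives of the fit, and 61 of the 91 named genes kept the sign of their log2 fold change in all of them. Of 1362 recomputed gene values 1286 kept sign and side of the threshold. The number of genes called was 1 with DESeq2, 1 without the filter on low counts and 1 with the year added to the fit, and 0 to 1 when samples were left out in turn. The called gene was RGD1562420 except with the year term, where it was Mrpl43 (log2 fold change 4.68, edgeR adjusted p = 0.00351), a gene at 4.20 CPM in sham 18. Genes at an unadjusted p under 0.05 numbered 1002 without the filter, 1567 with the year term (1036 higher and 531 lower), and 292 (without sample 15) to 1158 (without sham 18) when samples were left out, with 392 without Xin. With all mitochondrial genes in the limit on cells they were 228 higher and 414 lower.

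With the year as a term, the medians were 0.48 for injury signals, -2.06 for red blood cell markers and 0.52 for Tan genes, and these genes changed sign: Atf3 0.16, Jun 0.22, Smad1 0.20, Stat3 0.046, Sprr1a 0.66, Gap43 0.19, Stmn2 0.070, Tubb2b 0.14, Gal 0.32, Vip 0.043, Calca -0.084, Trpv1 -0.51, Scn10a -0.33, Cacna2d1 0.41, Nefl -0.0066, Hmgcs1 0.18, Sst -0.36 and Pvalb -0.64. Within 2020, where sham 18 alone stood for sham and was assumed to vary like the other groups, the medians were 0.37 for injury signals, 0.58 for endothelial, 0.98 for red blood cell, 0.078 for ribosomal, 0.074 for mitochondrially encoded, -0.14 for Salmon and 0.34 for Tan genes. There Atf3 was 0.14, Jun 0.27, Smad1 0.16, Sprr1a 0.62, Gap43 0.22, Stmn2 0.048, Tubb2b 0.24, Gal 0.54, Vip 0.38, Bdnf -0.18, Tac1 -0.42, Calca -0.61, Trpv1 -0.53, Scn10a -0.36, Scn9a -0.11, Cacna2d1 0.29, Mvk 0.015, Hmgcs1 0.11, Atf4 0.15, Hsp90aa1 0.089, S100b -0.25, Sst -0.62 and Rps9 0.26, each with the sign turned. In thinned cells the macrophage median was 0.44 and Scn9a was -0.0028.

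Leaving out 1 sample at a time gave ranges of -0.42 to 0.18 for Atf3, -0.55 to 0.061 for Jun, -0.23 to 0.078 for Smad1, -0.35 to 0.20 for Klf6, -0.13 to 0.10 for Stat3, -0.39 to 0.43 for Sprr1a, -0.12 to 0.17 for Gap43, -0.17 to 0.039 for Stmn2, -0.34 to 0.11 for Tubb2b, -0.49 to 0.36 for Gal, -0.078 to 0.67 for Calca, -0.13 to 0.45 for Trpv1, -0.024 to 0.15 for Scn9a, -0.17 to 0.16 for Cacna2d1, -0.019 to 0.41 for Nefl, -0.024 to 0.30 for Nefh, -0.16 to 0.042 for Hmgcs1, -0.35 to 0.26 for Fos, -0.21 to 0.26 for S100b, -0.0026 to 1.38 for Sst and -0.23 to 0.60 for Mrpl43. The medians ranged from -0.63 to 0.23 for endothelial, -1.22 to -0.14 for fibroblast and -0.18 to 1.47 for red blood cell markers. Injury genes whose share of neurons did not overlap numbered 1 to 6 when samples were left out (6 without Xin), 0 at 2 UMIs and 19 against sham 18 alone. These counts are out of 43 genes, and with fewer samples a gene is more easily without overlap by chance. Against sham 18 alone, it is enough that this 1 sample lies outside the range of the 3 SNC 3 d samples. The share expected by chance was not computed, so the 6 and the 19 are no measured excess. The causes of the shifts in the values, medians and counts of this section were not tested. No paired analysis was possible because the replicate numbers were given in order and name no shared animal or day.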
